A study of Homo sapiens with 27 samples.

Results

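The genes described here are the enzymes that build, elongate and desaturate fatty acids: ACLY, ACACA, ACACB, FASN, SCD, ELOVL6, FADS1, FADS2, ACSS2 and ACSL3. They were chosen by symbol, matched to the Entrez identifiers of a gene count table, and 9 of the 10 listed genes had a row among the 24566 rows of the table. ACACA was not analysed here. RNA was sequenced from 2 established human cell lines, MDA-MB-231 breast adenocarcinoma and A431 epidermoid carcinoma, in 27 libraries of 9 groups with 3 replicates each, all collected at 48 h. MDA-MB-231 cells were left untreated or were given CKI, 5-FU or both. A431 cells were left untreated, or were given the vehicle, CKI, doxorubicin, or CKI with doxorubicin. CKI is Compound Kushen Injection, an extract of medicinal plants used in the clinic in China, given at 1.0 mg/ml. 5-FU is 5-fluorouracil, an inhibitor of thymidylate synthesis, given at 10 ug/ml. Doxorubicin is a DNA-intercalating topoisomerase poison whose dose is not tied to a library in the labels. The labels do not name the vehicle. Both lines were grown in DMEM with fetal bovine serum, each group is a single line in culture, and the serum is itself a source of fatty acids.

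Fatty acid synthesis starts in the cytosol, where ACLY cleaves citrate and ACSS2 uses acetate, each to give acetyl-CoA. ACACA and ACACB carboxylate acetyl-CoA to malonyl-CoA, and FASN joins these units, with NADPH as the reductant, into palmitate. Since ACACA was not analysed here, the level of ACACB does not stand for the carboxylation step. ELOVL6 lengthens palmitate towards stearate, SCD puts a double bond into saturated acyl-CoAs to give oleate and palmitoleate, and FADS1 and FADS2 desaturate polyunsaturated fatty acids. ACSL3 activates fatty acids to acyl-CoAs at the endoplasmic reticulum and on lipid droplets. Transcription of most of these genes is raised by the sterol regulatory element-binding proteins SREBF1 and SREBF2, which INSIG1 holds back in the endoplasmic reticulum, and by the carbohydrate-responsive factor MLXIPL. Many tumour cells make fatty acids even when lipid is supplied.

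The promoters of 8 of the 9 analysed members, all but FASN, were in a RefSeq table (GRCh38.p14) with 12 start sites among them. The 250 bases before each start matched once on the GRCh37 chromosome and strand of the gene, and other chromosomes were not searched. In these windows the CCAAT box (letters CCAAT, either strand), bound by NF-Y, was present in 6 of the 12 windows (5 members) and in 32.0% of all 35116 promoter windows of the same length. The GC box (GGGCGG, either strand), bound by Sp factors, was present in 10 of the 12 (8 members, each in at least 1 window) and in 42.6% of all windows. A sterol regulatory element written as TCACNCCAC was found in none of the members' windows and in 0.883% of all, and the E box CACGTG in none and in 6.34%. A match is a run of letters, not a site shown to be bound. Other spellings of these motifs and bases outside the windows were not searched, so no match does not mean that a promoter lacks the element. The windows printed here, 5′ to 3′ on the strand of the gene and ending at the base before the start, are those of SCD and ACLY, which rose with CKI in A431 cells, and of ACACB, which did not pass the test there. Capitals mark CCAAT or its reverse complement, of which each printed window holds 2. ACLY and ACACB have a second start site each. The other ACLY window overlaps the printed one and holds the same 2 CCAAT matches, so that these count in 2 of the 6 windows. It shares GC boxes with the printed one too. The other ACACB window (chr12:109554142-109554391) holds no CCAAT and no GC box. The SCD window lies on GRCh37 at chr10:102106740-102106989, plus strand, directly before the annotated gene. The printed ACLY window is chr17:40075276-40075525, minus strand, and the printed ACACB window is chr12:109592234-109592483, plus strand. Both of these are in introns of the longest annotated span of their gene, with 0 exonic bases.
SCD: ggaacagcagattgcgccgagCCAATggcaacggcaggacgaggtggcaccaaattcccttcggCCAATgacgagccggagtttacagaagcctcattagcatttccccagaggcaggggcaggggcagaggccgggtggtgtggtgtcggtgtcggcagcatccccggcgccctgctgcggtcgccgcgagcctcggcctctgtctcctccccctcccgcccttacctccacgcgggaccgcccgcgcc
ACLY: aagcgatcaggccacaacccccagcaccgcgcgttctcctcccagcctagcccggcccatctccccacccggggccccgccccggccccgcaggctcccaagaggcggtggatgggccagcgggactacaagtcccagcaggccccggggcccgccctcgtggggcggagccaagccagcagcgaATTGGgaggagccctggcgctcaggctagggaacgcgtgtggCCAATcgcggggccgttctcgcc
ACACB: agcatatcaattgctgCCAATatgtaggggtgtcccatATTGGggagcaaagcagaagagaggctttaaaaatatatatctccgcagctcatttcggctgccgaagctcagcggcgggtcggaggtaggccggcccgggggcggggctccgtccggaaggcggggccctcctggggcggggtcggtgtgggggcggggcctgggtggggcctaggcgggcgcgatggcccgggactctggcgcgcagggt

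Total counts per library were 19871048 to 22809339 in MDA-MB-231 and 17757206 to 21756536 in A431, so that 3 counts stand for at most 0.169 CPM (counts scaled to a library of common size). The labels matched the lines: KRT5 and KRT14, keratins of squamous epithelium, averaged 3575 and 703 CPM in untreated A431 cells and 0.0817 and 0.119 CPM in untreated MDA-MB-231 cells, while VIM, a mesenchymal filament, averaged 7.25 and 1728 CPM. Of the lists fixed for this check, 4 of 5 A431 markers (all but DSP) were higher in A431 and 4 of 4 MDA-MB-231 markers were higher in MDA-MB-231, and ESR1 was at 0 counts in all 3 untreated MDA-MB-231 libraries. Replicates of most groups were close, with a chi-square per degree of freedom between libraries of 1.87 to 5.14. Untreated MDA-MB-231 replicate 1 stood apart at 71.8 and 82.9 from the other replicates, which were 2.68 from each other, and the A431 vehicle replicates were 9.22 to 26.1 from each other. In both cases the differences followed GC content over all genes (Spearman rho of -0.66 and -0.64 for untreated MDA-MB-231 replicate 1, and -0.36 to -0.59 among the vehicle libraries, given as a description since genes are not independent). Some close replicates in MDA-MB-231 also differed along GC content. The rho was 0.42 and -0.51 for replicate 2 of CKI with 5-FU, and 0.39 and 0.34 for 5-FU replicate 3, against the others of their group. FASN has the highest GC content of the 9 transcripts, 65.3%, and ACSL3 the lowest, 37.4%. FASN was at 236 CPM in untreated MDA-MB-231 replicate 1 and at 709 and 799.9 CPM in the others, a log2 difference from their mean of -1.68. In vehicle replicate 1 it was at 1359.6 CPM against 1965 and 2409.6 CPM, a log2 difference of -0.69. ACSL3 lay on the other side, at 0.18 and 0.13. Values without untreated MDA-MB-231 replicate 1 or vehicle replicate 1, and with offsets for GC content and length, are therefore given beside many, but not all, of the results they touch.

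**Figure D1:**
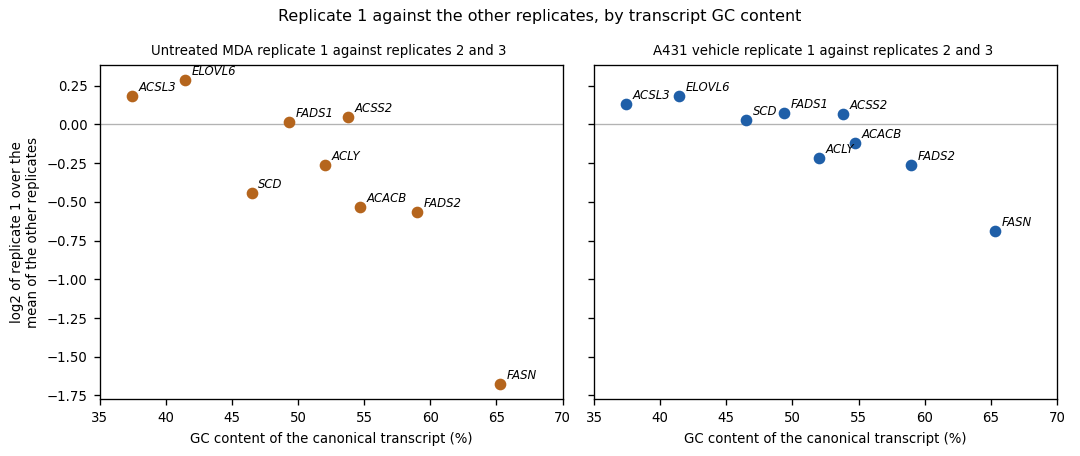
Log2 ratio of replicate 1 over the mean of the other replicates (y axis) against the GC content of each gene's canonical transcript in percent (x axis), with 1 point per gene, for untreated MDA-MB-231 cells (left) and A431 vehicle control (right). FASN, at 65.3% GC, is lowest in both panels (-1.68 and -0.69), and ELOVL6 is highest (0.28 and 0.18).

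Levels were first compared within each line, per length of the canonical transcript (RPKM). In untreated A431 cells FASN led with 234 ± 15.3 RPKM (SD, n = 3), followed by SCD with 164 ± 7.3 and ACLY with 82.5 ± 1.8. FADS2 was second to last with 3.8 ± 0.24 RPKM and ACACB last with 0.23 ± 0.07. In untreated MDA-MB-231 cells SCD, FADS2 and ACLY were at 136 ± 22.9, 114 ± 24.1 and 105 ± 10.6 RPKM, an order within their spread, FASN was at 68.7 ± 35.8, and ACACB was again last with 0.79 ± 0.16. The place of FADS2 depends on the length used: over the union of its annotated exons it was at 33.3 RPKM, below FASN. ACLY, ACSL3, ELOVL6, FADS1 and FADS2 overlap other annotated exons by 156 to 570 bases, and the libraries were unstranded, so a share of their reads could belong to those genes.

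The untreated lines differed in 4 of 9 members under the 2 thresholds that define a called change throughout, an adjusted p under 0.05 (edgeR's quasi-likelihood test with Benjamini-Hochberg adjustment over all genes) and more than a 2-fold difference, against 42.9% of all genes tested. The median log2 difference of the 9 members, A431 over MDA-MB-231, was -0.31, beside 0.09 for all genes. FADS2 was at 10.8 to 12.3 CPM in untreated A431 and at 266 to 399 CPM in untreated MDA-MB-231 libraries. This was 29.4-fold lower in A431 (log2 -4.88 ± 0.14 SE, adjusted p = 2.50e-12), the largest difference among the members. FADS1, encoded beside it on chromosome 11, was also lower in A431, by 2.48-fold (log2 -1.31 ± 0.06), and so was ACACB, by 3.31-fold (log2 -1.73 ± 0.21). FASN was 3.52-fold higher in A431 (log2 1.82 ± 0.30, adjusted p = 9.08e-05), and 1.44 on the log2 scale without untreated MDA-MB-231 replicate 1. ELOVL6 lay at -0.94 ± 0.08, just short of the fold threshold. It passed this at -1.02 with DESeq2 or RLE factors, at -1.07 with library size alone and at -1.09 with a replicate block. It also passed with no filter on low counts (-1.03), with at least 10 counts in every library (-1.01) and with the compared groups alone (-1.04). Without untreated A431 replicate 2 or 3 it was at -1.04. Over all alternatives ELOVL6 ran from -1.09 to -0.56. SCD, ACSS2 and ACLY lay at 0.32, 0.28 and -0.31. Line and any difference in handling between the lines cannot be told apart.

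**Figure D2:**
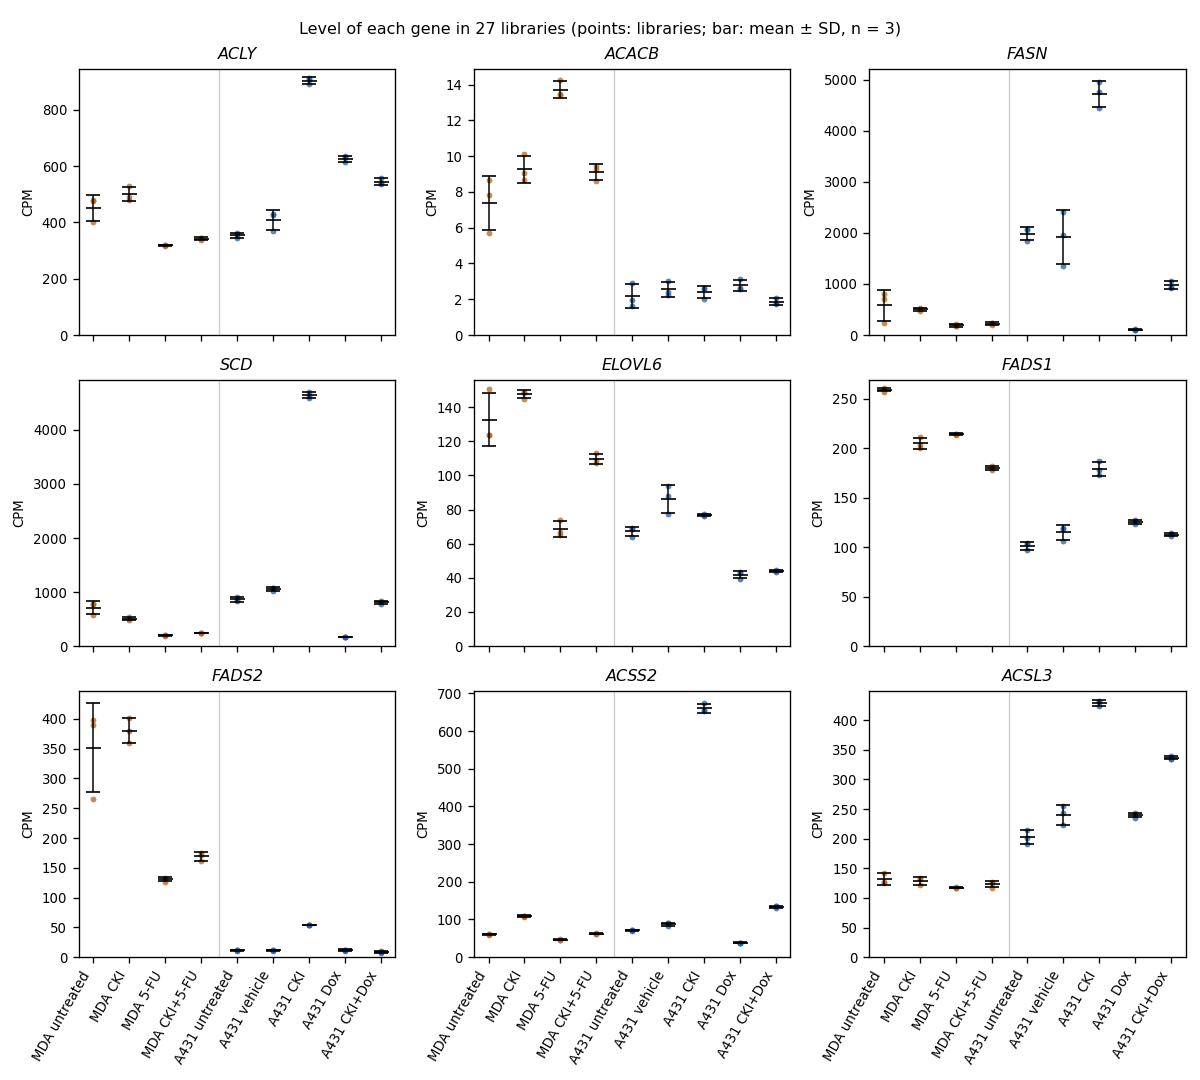
CPM of each of the 9 genes (y axis, linear from 0) in every library of the 9 groups (x axis, MDA-MB-231 left of the grey line and A431 right of it), with points for libraries and bars for the mean ± SD (n = 3). CKI libraries of A431 are highest for FASN, SCD, ACSS2, ACLY and ACSL3 among all groups, and FASN is lowest in doxorubicin-treated A431, at 106 to 109 CPM.

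In A431 cells CKI was followed by higher levels of both enzymes that make cytosolic acetyl-CoA, of FASN, of SCD and FADS2, and of ACSL3. Of the 9 members 6 rose compared to untreated cells and none fell, against 22.4% of all genes called in either direction, and the median log2 fold change of the members was 1.17 beside 0.00 for all genes. ACSS2, the acetate-using synthetase, was at 70.6, 71.5 and 72.2 CPM in untreated libraries and at 675, 655 and 653 CPM with CKI. The groups lay far apart, with a fold change of 8.78 (log2 3.13 ± 0.06 SE, adjusted p = 3.92e-21). SCD was at 835, 847 and 906 CPM untreated and at 4586, 4636 and 4701 CPM with CKI, a 5.10-fold rise (log2 2.35 ± 0.05, adjusted p = 7.78e-20) that made it the most abundant member per length, at 885 RPKM. FADS2 was at 10.8, 11.7 and 12.3 CPM untreated and at 54.3, 54.3 and 54.5 CPM with CKI. It rose 4.44-fold (log2 2.15 ± 0.10), and its CKI level stayed below each of the MDA-MB-231 libraries.

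ACLY, which cleaves citrate, was at 355, 346 and 362 CPM untreated and at 891, 913 and 909.8 CPM with CKI (2.42-fold, log2 1.28 ± 0.06). FASN was at 2049, 1835 and 2068 CPM untreated and at 4448, 4950.5 and 4750.0 CPM with CKI (2.25-fold, log2 1.17 ± 0.12, adjusted p = 5.89e-09). ACSL3 was at 191, 201 and 215 CPM untreated and at 424, 431.1 and 432 CPM with CKI (log2 1.01 ± 0.06). None of these 3 overlapped between groups, but 6 of the 9 members also did not overlap between vehicle and untreated libraries, where none was called. The share of all genes without overlap is not given here. ACSL3 sat at the threshold: it was at 0.96 and 0.998 on the log2 scale without untreated A431 replicate 1 or 2, and at 0.71 with GC and length offsets, all under the fold threshold. The remaining members did not pass both thresholds. FADS1 was at 0.75 ± 0.06 (adjusted p = 8.20e-11), ELOVL6 at 0.12 ± 0.07 and ACACB, at about 2 CPM (2.17 untreated and 2.40 with CKI), at 0.07 ± 0.22.

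The vehicle control allowed the same comparison against cells that received the unnamed vehicle. Vehicle against untreated called none of the 9 members, with 2.54% of all genes called, but 6 members passed the adjusted p alone by this test, all higher with vehicle: ELOVL6 at 0.38, SCD and ACSS2 at 0.31, ACSL3 at 0.26, ACLY at 0.23 and FADS1 at 0.20 on the log2 scale. The 2.54% is for both thresholds, and the share of all genes passing the adjusted p alone is not given here. The fold changes of all genes in that comparison followed GC content (Spearman rho of -0.58, a description), and with GC and length offsets ACSS2 was at 0.39, FASN at 0.34, ACLY at 0.21 and SCD at 0.13, each with an adjusted p under 0.05, while FADS2, FADS1, ELOVL6 and ACSL3 were at 0.23, 0.10, 0.08 and -0.08 and did not pass it. CKI against vehicle called 5 of the 9 members, all higher with CKI, against 19.5% of all genes. ACSS2 was at 2.83 ± 0.06, FADS2 at 2.16 ± 0.10, SCD at 2.05 ± 0.05, FASN at 1.21 ± 0.12 and ACLY at 1.05 ± 0.05. FASN lay under the fold threshold, at 0.74, with GC and length offsets and just past it, at 1.01, without vehicle replicate 1, and ACLY under it, at 0.98, without that library. ACSL3 was at 0.74 and FADS1 at 0.55. ELOVL6 was on the lower side with CKI, at -0.26 (adjusted p = 1.66e-03 by edgeR's test) and at -0.34 to -0.15 over the alternatives. In all, 7 of the 9 members had a value above 0. Both comparisons share the CKI libraries. RNA from a whole culture does not tell fewer cells of a type from less RNA per cell.

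Doxorubicin lowered FASN and SCD in A431 cells and called no other member. These 2 of 9 stand against 37.3% of all genes called, and the median log2 fold change of the members was -0.06 beside 0.02 for all genes. FASN was at 109, 106 and 108 CPM with doxorubicin, against the 1835 to 2068 CPM of untreated cells, a 19.1-fold fall (log2 -4.25 ± 0.13, adjusted p = 6.05e-18). SCD was at 162, 165 and 167 CPM with doxorubicin, 5.44-fold below untreated (log2 -2.44 ± 0.05). ACSS2 was at 38.3, 38.5 and 36.5 CPM and so also outside the untreated range, at -0.97 ± 0.06, and it passed the fold threshold with GC and length offsets (-1.11), with vehicle as the control (-1.28), with no filter on low counts (-1.03) and without untreated replicate 1 (-1.00004). ELOVL6 was at -0.74 ± 0.07, and at -1.11 with vehicle as the control. ACLY moved the other way, at 0.77 ± 0.05 (615, 631 and 635 CPM). FADS1 and ACSL3 were at 0.26 and 0.19, ACACB at 0.31 ± 0.21 and FADS2 at -0.06 ± 0.11. The scaling matters in this comparison, since dividing by library size alone raised the median of all genes to 0.36. FASN was then at -3.91, SCD at -2.10, ACLY past the fold threshold at 1.11, ACSS2 at -0.63, ELOVL6 at -0.39 and FADS2 at 0.29.

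With CKI added to doxorubicin, FASN, SCD and ACSS2 were again higher. They were the 3 of 9 members called against doxorubicin alone, with 14.9% of all genes called, at a median log2 fold change of 0.10 for the members and 0.03 for all genes. FASN was at 1064, 934 and 924 CPM in the combination, 9.21-fold above doxorubicin alone (log2 3.20 ± 0.13, adjusted p = 1.84e-15). SCD was at 821, 784.5 and 831 CPM, 5.03-fold above doxorubicin alone (log2 2.33 ± 0.05). ACSS2 was at 130.0, 134 and 135 CPM, 3.60-fold above it (log2 1.85 ± 0.06). ACSL3 was at 0.52 ± 0.06, whereas ACACB (-0.55), FADS2 (-0.46), ACLY (-0.17) and FADS1 (-0.13) were on the lower side and ELOVL6 was at 0.10 ± 0.07.

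Compared to untreated cells the combination called FASN alone (log2 -1.05 ± 0.12), 1 of 9 members against 35.5% of all genes. That call rested on the settings: FASN was at -0.56 with GC and length offsets, -0.74 with library size alone, -0.92 with at least 10 counts in every library, and -0.98 with DESeq2, with RLE factors or with the compared groups fitted alone. SCD was close to its untreated level, at -0.11 ± 0.05, and at 0.20 with library size alone. ACSS2 was at 0.87 ± 0.06, ACSL3 at 0.71 ± 0.06, ACLY at 0.60 ± 0.05, ELOVL6 at -0.64 ± 0.07 and FADS2 at -0.51 ± 0.12, each with an adjusted p under 0.05 but under the fold threshold. Other settings took some of these past it: ACSS2 and ACSL3 were at 1.19 and 1.02 with library size alone, ACSS2 was at 1.001 with at least 10 counts in every library, and ELOVL6 was at -1.02 with vehicle as the control. Against CKI alone the combination was lower in 4 of 9 members, with 25.7% of all genes called. FADS2 fell by 2.66, SCD by 2.46, ACSS2 by 2.26 and FASN by 2.22 on the log2 scale, and the median of the members was -0.76 beside 0.05 for all genes. Over the alternatives FASN ran from -2.31 to -1.64 there. The comparisons in this line share their untreated, CKI and doxorubicin libraries and are not independent of each other.

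The effect of CKI therefore was compared directly between A431 cells with and without doxorubicin by the interaction term, which is the log2 fold change of CKI in the presence of doxorubicin minus that in its absence. It was called for 4 of 9 members, against 19.5% of all genes. FADS2 had the largest difference (-2.61 ± 0.15, adjusted p = 2.71e-12): CKI raised it 4.44-fold alone, while in the presence of doxorubicin it was at 12.2, 10.1 and 12.5 CPM without CKI and at 9.73, 8.11 and 6.92 CPM with it. ACLY differed by -1.45 ± 0.08 and ACSS2 by -1.29 ± 0.08, the rise of ACSS2 being 8.78-fold alone and 3.60-fold with doxorubicin. FASN differed in the other direction (2.03 ± 0.17, adjusted p = 7.35e-10), with 2.25-fold alone and 9.21-fold with doxorubicin, from a doxorubicin level of 108 ± 1.55 CPM (SD, n = 3). For SCD the difference was -0.02 ± 0.07 (adjusted p = 0.826), with rises of 5.10-fold and 5.03-fold. Over the alternatives, vehicle as the control included, the SCD term ran from -0.16 to 0.28, under the fold threshold. FADS1 was at -0.88 ± 0.08 and ACSL3 at -0.49 ± 0.08, under the fold threshold, although FADS1 passed it at -1.02 with library size alone. With vehicle as the control without CKI, ACSS2 was at -0.98 and no longer called.

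**Figure D3:**
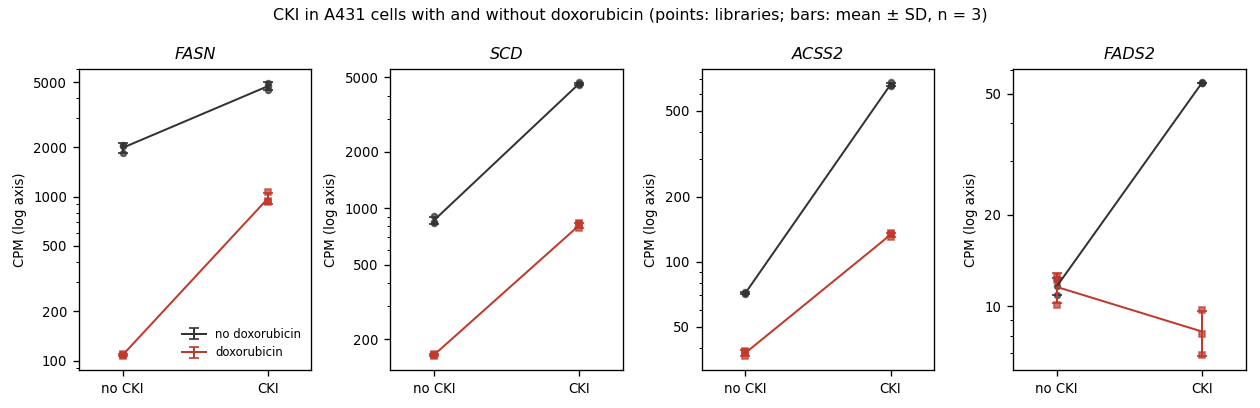
CPM on a log axis for FASN, SCD, ACSS2 and FADS2 in A431 cells without and with CKI (x axis), in the absence (grey) and presence (red) of doxorubicin, with points for libraries and bars for the mean ± SD (n = 3). The lines of SCD run parallel (interaction -0.02, and -0.16 to 0.28 over the alternatives), the doxorubicin line is steeper for FASN (2.03), and it is flatter for ACSS2 (-1.29) and descends for FADS2 (-2.61). Cells without CKI or doxorubicin are the untreated libraries, not the vehicle control.

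In MDA-MB-231 cells CKI called none of the 9 members by edgeR's test, with 5.96% of all genes called, and the median of the members was 0.11 beside -0.01 for all genes. ACSS2 came nearest, at 61.8, 58.3 and 61.2 CPM untreated and 110.4, 109 and 106 CPM with CKI, without overlap, 1.79-fold higher (log2 0.84 ± 0.06, adjusted p = 5.79e-07). SCD was lower at -0.49 ± 0.10 (adjusted p = 2.67e-03) and FADS1 at -0.34 ± 0.05 (adjusted p = 1.53e-04). These 3 passed the adjusted p alone, for which no share of all genes is given here, and DESeq2 also called no member. FASN was at 468, 507 and 527 CPM with CKI. Its difference of -0.22 ± 0.31 (adjusted p = 0.624) rested on untreated replicate 1: without that library it was at -0.60 (adjusted p = 2.55e-07), and SCD was at -0.63.

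5-FU lowered SCD, FASN and FADS2 in this line, 3 of 9 members against 13.3% of all genes, with a median of -0.50 for the members and 0.00 for all genes. SCD was at 575, 777 and 788 CPM untreated and at 207, 188 and 203 CPM with 5-FU, 3.56-fold lower (log2 -1.83 ± 0.10, adjusted p = 5.98e-08). FASN was at 216, 180.3 and 173 CPM with 5-FU, below each untreated library, replicate 1 at 236 CPM included (log2 -1.61 ± 0.32, adjusted p = 1.05e-03, and -1.99 without that replicate). FADS2 was at 266, 391 and 399 CPM untreated and at 127, 132 and 133 CPM with 5-FU, 2.68-fold lower (log2 -1.42 ± 0.12). ELOVL6, which works next to SCD and FASN in the pathway, was at 65.2, 66.8 and 73.9 CPM against 150.4, 123.5 and 124 CPM, at -0.94 ± 0.08. ACACB was on the higher side, at 14.3, 13.5 and 13.4 CPM against 5.69, 7.80 and 8.65 CPM (log2 0.90 ± 0.13), and passed the fold threshold at 1.02 without untreated replicate 3 and at 1.03 with library size alone or with GC and length offsets. ACLY was at -0.50, ACSS2 at -0.39, FADS1 at -0.27 and ACSL3 at -0.16.

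The combination of CKI and 5-FU called the same 3 genes compared to untreated cells, with 9.04% of all genes called. SCD was at -1.54 ± 0.10, FASN at -1.38 ± 0.32 and FADS2 at -1.05 ± 0.12. FASN in the combination, at 238, 193 and 237 CPM, overlapped untreated replicate 1 at 236 CPM. Without that replicate FASN was at -1.76 and FADS2 at -1.22, with GC and length offsets they were at -0.96 and -0.86, and FADS2 was at -0.91 with library size alone and at -0.97 or -0.95 without untreated replicate 2 or 3, so that the calls of FASN and FADS2 did not hold under each setting. Against 5-FU alone no member was called by edgeR or DESeq2, with 9.77% of all genes called, and 6 members passed the adjusted p alone. The 9.77% is for both thresholds and is no measure for that last count. ELOVL6 was at 0.68 ± 0.08, ACSS2 at 0.45, FADS2 at 0.37 and SCD at 0.29, while ACACB was at -0.59 and FADS1 at -0.25.

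Against CKI alone the combination was lower in the same 3 genes, with 3.81% of all genes called: FADS2 and FASN at -1.16 and SCD at -1.05. The fold changes of all genes there followed GC content (Spearman rho of -0.52, a description). With GC and length offsets FADS2 and FASN were at -0.92 and -0.67, under the fold threshold, and SCD at -1.11. With library size alone SCD was at -0.98, also under it, and FASN had an adjusted p of 0.0524 without combination replicate 2. The interaction of CKI with 5-FU called no member, with 6.84% of all genes called. ACACB was at -0.91 ± 0.18, SCD at 0.78 ± 0.14, ELOVL6 at 0.52 ± 0.11 and ACSS2 at -0.39 ± 0.08, each with an adjusted p under 0.05. DESeq2 called none of them either.

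**Figure D4:**
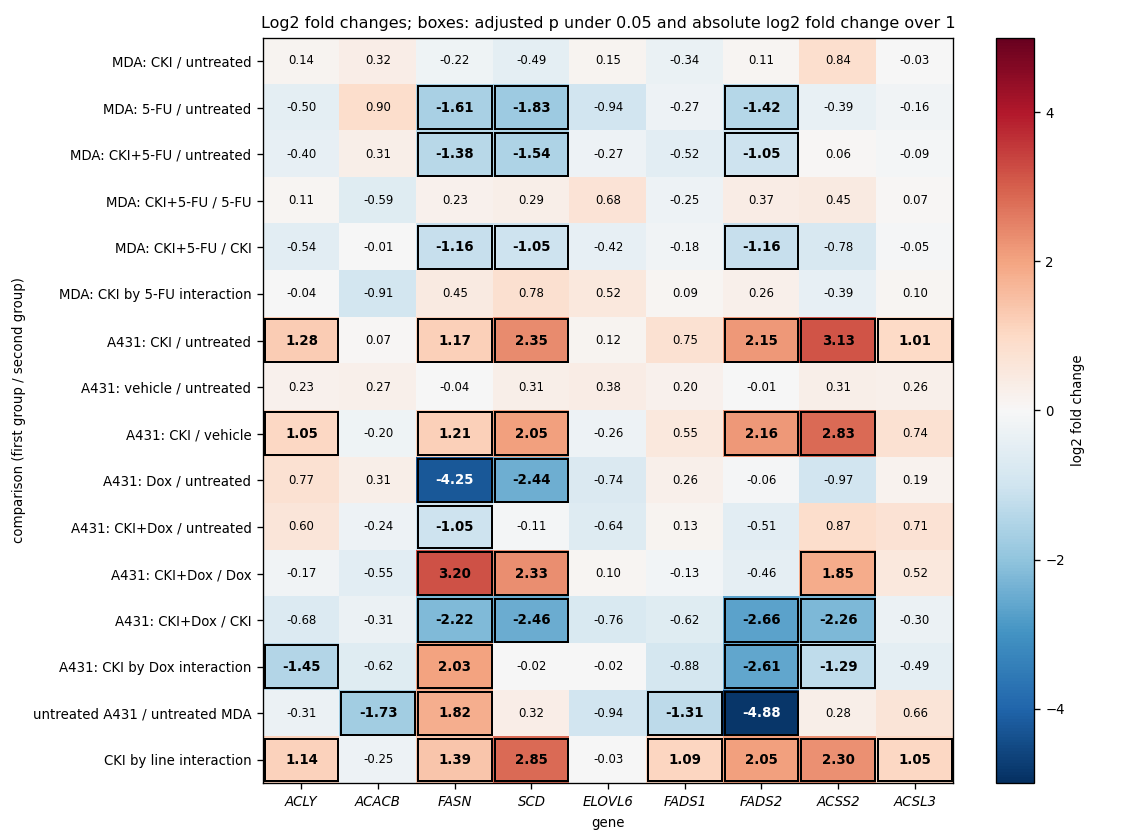
Log2 fold changes of the 9 genes (x axis) in the 16 comparisons (y axis, first group over second group or an interaction term), printed in each cell and shown by colour from blue (lower) to red (higher). Boxes mark the 45 of 144 values with an adjusted p under 0.05 and more than a 2-fold difference, which for CKI alone lie in A431 and not in MDA-MB-231.

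The response to CKI was compared between the lines in 1 fit over their untreated and CKI libraries. The difference, CKI in A431 minus CKI in MDA-MB-231, was called for 7 of 9 members, all positive, against 18.5% of all genes, at a median of 1.14 for the members and -0.01 for all genes. SCD differed most (2.85 ± 0.14, adjusted p = 1.77e-08), being 5.10-fold higher with CKI in A431 and 1.41-fold lower in MDA-MB-231. ACSS2 differed by 2.30 ± 0.09 although it was on the higher side in both lines. FADS2 differed by 2.05 ± 0.18, FASN by 1.39 ± 0.42 (adjusted p = 0.0139), ACLY by 1.14 ± 0.10, FADS1 by 1.09 ± 0.09 and ACSL3 by 1.05 ± 0.11. ELOVL6 (-0.03 ± 0.12) and ACACB (-0.25 ± 0.30) had no called difference. The smaller differences were less firm: with vehicle as the A431 control ACLY was at 0.91, FADS1 at 0.89 and ACSL3 at 0.79, with GC and length offsets FADS1 was at 0.998 and ACSL3 at 0.73, and without untreated MDA-MB-231 replicate 1 ACSL3 was at 0.98. FASN was at 1.77 without that replicate.

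In MDA-MB-231 the group means of FASN, SCD and ACSL3 shared 1 order (untreated, CKI, combination, 5-FU), and those of ACLY, ELOVL6 and FADS2 another (CKI, untreated, combination, 5-FU), with CKI and untreated libraries overlapping in each but SCD. ACSS2 had the same lowest and highest treatment in both lines apart from the drug, with CKI at the top (661 ± 12.1 CPM in A431 and 108 ± 2.4 in MDA-MB-231) and doxorubicin or 5-FU at the bottom (37.8 ± 1.1 and 45.9 ± 1.55). FASN spanned 43.7-fold between its highest and lowest A431 groups and 3.07-fold in MDA-MB-231, SCD 28.2-fold and 3.58-fold, ACSS2 17.5-fold and 2.36-fold, and FADS2 6.59-fold and 2.91-fold. The MDA-MB-231 groups spanned 1.12-fold for ACSL3, where untreated, CKI and the combination overlapped their neighbours, against 2.12-fold in A431. FADS1 spanned 1.44-fold in MDA-MB-231, from 180.4 ± 2.05 CPM in the combination to 259 ± 1.8 CPM untreated, with no overlap between neighbouring groups, and 1.77-fold in A431. ACACB was the lowest member in each group, and its A431 groups overlapped their neighbours throughout.

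Genes that regulate these enzymes were read from a list of 13, of which 12 were tested in each line. In A431 with CKI 3 of 12 rose and none fell (INSIG1, MLXIPL and INSIG2), a count near the 22.4% of all genes called. The list median was 0.67 beside 0.00 for all genes. INSIG1, itself a target of the sterol regulatory factors, averaged 129 ± 4.6 CPM untreated, 235 ± 15.5 with vehicle, 773 ± 11.5 with CKI, 66.7 ± 0.94 with doxorubicin and 546 ± 6.8 with both. Its log2 fold change was 2.503 with CKI, -1.01 with doxorubicin and 3.06 for the combination against doxorubicin. The doxorubicin value sat at the threshold and was -0.92 with RLE factors and -0.66 with library size alone, neither called. Vehicle was 0.88 above untreated, and CKI against vehicle was 1.63. In the list, INSIG1 and MLXIPL were also called with CKI against vehicle and INSIG2 was not, with 19.5% of all genes called. MLXIPL rose with CKI in A431 by 1.75 and averaged 26.4 ± 1.2 CPM there, against 7.43 ± 1.3 untreated.

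SREBF1 was at -0.02 with CKI in A431 and fell by 1.54 with doxorubicin and by 1.68 with the combination. In MDA-MB-231 it fell with CKI (log2 -1.54), where no member fell under both thresholds, with 5-FU (-1.10) and with the combination (-2.59). Its untreated libraries were at 159, 499 and 541 CPM, with replicate 1 again the low one, and without that replicate it was at -1.92, -1.48 and -2.97. With GC and length offsets SREBF1 was at -0.84 with 5-FU, under the fold threshold. SREBF2, which was at 0.91 with CKI and -0.998 with doxorubicin in A431, short of the call, fell with 5-FU in MDA-MB-231 (log2 -1.06, and -0.93 with GC and length offsets), as did INSIG1 (-1.43) and MLXIPL (-1.68, at 3.10 ± 1.0 CPM untreated).

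Of 10 genes that supply citrate, acetyl-CoA and NADPH, 3 rose with CKI in A431 (ME1, PGD and IDH1) and none fell, with a median of 0.06. In that comparison 22.4% of all genes were called. ME1, the NADPH-making malic enzyme, rose by 1.58 with CKI and fell by 1.89 with doxorubicin, and PGD of the pentose phosphate pathway rose by 1.31 with CKI. Against vehicle, ME1 and PGD were also called with CKI and IDH1 was not, with 19.5% of all genes called. With doxorubicin 2 of the 10 rose and 4 fell, with 37.3% of all genes called. In MDA-MB-231, 2 of the 10 fell with 5-FU (ACSS1 and IDH1) and none rose, with 13.3% of all genes called. None was called with CKI by edgeR or DESeq2, with 5.96% of all genes called by edgeR. Of the 10, 7 had an unadjusted p under 0.05 with CKI.

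Among the other desaturases and acyl-CoA synthetases 3 of 10 rose with CKI in A431 and none fell. ACSL1, which activates long-chain fatty acids, rose by 2.78, from 89.3 to 649 CPM on average, and SCD5 rose by 1.75. None of the 8 tested in MDA-MB-231 was called with CKI or with 5-FU by edgeR, with 7 and 2 at an unadjusted p under 0.05 and 0 and 1 called by DESeq2. Of the other elongation enzymes 2 of 11 rose with CKI in A431 (ELOVL4 by 1.83 and ELOVL7 by 1.16) and none fell, while of 9 tested in MDA-MB-231 1 rose with CKI (ELOVL3 by 1.07, from 1.10 to 2.32 CPM on average) and none was called with 5-FU by edgeR or DESeq2, with 5 at an unadjusted p under 0.05. Among 10 genes of glycerolipid synthesis and storage 1 rose (LPIN1, log2 1.92) and 1 fell (DGAT2) with CKI in A431. Of 10 tested genes of fatty acid oxidation none was called with CKI in A431 by edgeR or DESeq2, with 6 at an unadjusted p under 0.05 and a list median of -0.12, and with doxorubicin 1 rose (MLYCD) and 1 fell (ECI1). In MDA-MB-231 1 of 11 oxidation genes fell with CKI (ACADL). Doxorubicin raised 4 of the 11 elongation enzymes and lowered 1. It raised 3 of the 10 desaturases and synthetases and lowered 1, and raised 1 of the 10 glycerolipid genes and lowered 3. Of those raised, ELOVL2 and ACSS3 were at 0 counts in untreated A431 libraries. Against vehicle, CKI raised 4 of the 10 desaturases and synthetases in A431 and 1 of the 11 elongation enzymes, ELOVL4. It raised 2 of the 10 glycerolipid genes, LPIN1 and PNPLA2, and no gene of these lists fell. These counts against vehicle stand beside 19.5% of all genes called, which the elongation and glycerolipid counts did not clearly exceed. ELOVL7 and DGAT2 were thus not called against vehicle. The counts of called genes in these lists, against untreated cells, are read beside the shares of all genes called. These were 22.4% with CKI and 37.3% with doxorubicin in A431, and 5.96% with CKI and 13.3% with 5-FU in MDA-MB-231. No share of all genes is given here for the counts at an unadjusted p.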

How the data were processed

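RNA from 27 cultures was sequenced as unstranded libraries. Per the labels and the submitters' processing notes, reads were trimmed with Trim Galore 0.3.7 and aligned to hg19 (GRCh37) with STAR 2.5.3a, and the authors deposited raw counts per Entrez gene. The counting tool, its annotation and its use of strand are not given in the sources used here. Of the 24566 rows, 1597 had no count and a RefSeq table (GRCh38.p14, names alone) gave symbols for 24422. Gene positions, transcript lengths and GC content came from the GENCODE v44 annotation on GRCh37, which covered 99.5% of rows.

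Counts were tested with edgeR 4.0.16 in R 4.3.3 (quasi-likelihood test, TMM factors, filterByExpr), with all groups of a line in the fit, or the untreated and CKI groups of both lines where lines were compared. DE genes passed both thresholds of the study, a Benjamini-Hochberg adjusted p under 0.05 and more than a 2-fold difference (absolute log2 over 1). SE is the log2 fold change divided by the square root of F. CPM used TMM factors over the 27 libraries. The labels give 3 biological replicates per group but do not say how separate the cultures were, so p-values measure the spread between these samples. Alternatives were DESeq2 1.42.0, RLE factors, library size alone, 2 other filters (none, or at least 10 counts in every library), GC and length offsets (lowess, span 0.3), the vehicle control, the compared groups alone, the adjusted p alone, a replicate block and leaving out each library. The scripts were tested on simulated data. Depth was 17757206 to 22809339 counts per library.

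The members and companion lists (65 genes in 6 lists) were chosen with earlier results of these data known. Named genes are the members, SREBF1, SREBF2, INSIG1 and MLXIPL, line markers, and at most the 2 called genes of each companion list with the largest log2 fold change in each direction. INSIG2, IDH1 and DSP are named outside this rule, to complete small counts, after their values were seen. 1 further gene of these lists is not reported here.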

Additional observations from a re-analysis of the deposited data

Results flagged for a closer look

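The response of A431 cells to CKI differed between cells with and without doxorubicin in 4 genes, by the interaction term of the edgeR fit (adjusted p under 0.05 and an absolute value over 1 on the log2 scale). The difference was -2.61 for FADS2, -1.45 for ACLY, -1.29 for ACSS2 and 2.03 for FASN. Of these FADS2, ACLY and FASN kept the call under each alternative run, and ACSS2 was at -0.98 with vehicle in place of untreated libraries.

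The response to CKI differed between A431 and MDA-MB-231 cells in 7 genes by the corresponding term. The difference was 2.85 for SCD, 2.30 for ACSS2, 2.05 for FADS2, 1.39 for FASN, 1.14 for ACLY, 1.09 for FADS1 and 1.05 for ACSL3. The untreated MDA-MB-231 libraries in this comparison include replicate 1, whose FASN level was 236 CPM against 709 and 799.9 CPM in the others. Without that library the differences were 2.98 for SCD, 2.28 for ACSS2, 2.21 for FADS2, 1.77 for FASN, 1.21 for ACLY, 1.08 for FADS1 and 0.98 for ACSL3, the last under the fold threshold.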

How the results depend on the processing

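No member changed direction in a called value under any alternative. Of the 45 called member values 45 were kept with no filter on low counts, 45 with the replicate block, 44 with DESeq2, with RLE factors and with at least 10 counts in every library, 42 with library size alone and 36 with GC and length offsets, and 14 of 18 with vehicle as the control. Leaving out 1 library at a time kept 329 of 336. The numbers of members called without one replicate ranged from 0 to 1 for CKI by 5-FU (1 without untreated MDA-MB-231 replicate 3, ACACB), 2 to 3 for the 5-FU combination against untreated or CKI, 3 to 4 for 5-FU, 5 to 6 and 4 to 5 for CKI against untreated or vehicle in A431, 2 to 3 for doxorubicin, 6 to 7 for CKI by line and 4 to 5 for the untreated lines, and did not move in the other comparisons.

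By the adjusted p alone the numbers of members were 3 for CKI, 8 for 5-FU, 6, 6 and 7 for the 5-FU combination against untreated, 5-FU and CKI, and 4 for CKI by 5-FU in MDA-MB-231. In A431 they were 6 for vehicle, 8 for CKI against vehicle, 7 for doxorubicin, and 7, 8 and 8 for the doxorubicin combination against untreated, doxorubicin and CKI, and they were 9 for the untreated lines. With GC and length offsets, with or without the replicate block, 1 member was called for the 5-FU combination against untreated and 1 against CKI, and 0 for the doxorubicin combination against untreated. That last number was also 0 with RLE factors, DESeq2 or the compared groups alone, and 2 with library size alone. With vehicle as the control it was 2, doxorubicin called 4 and CKI by line 4. The causes of these moves were not tested. The share of all genes passing the adjusted p alone, or called under another setting, is not given here. The counts in this paragraph therefore do not show a response particular to the members.

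Same-numbered libraries did not deviate together: their correlations were -0.29 to 0.12 over 18 pairs in MDA-MB-231 and -0.15 to 0.07 over 30 pairs in A431, and 7 of 27 libraries correlated best with their own number. The replicate block added 1 call, ELOVL6 between the untreated lines (-1.09). Genes near 3 counts per library, at most 0.169 CPM, could not be compared at this depth.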
